A study of Mus musculus with 2 samples.

Results

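The mitochondrial ribosomal protein genes were described across stages of erythroid differentiation and in the non-erythroid cells of the fetal liver. Members were the genes whose symbol is *Mrpl* or *Mrps* followed only by a number, which gave 74 of the 27998 genes listed, 48 *Mrpl* and 26 *Mrps* symbols. All 74 had at least 1 UMI (unique molecular identifier, 1 count per captured transcript). The data were 1 CITE-seq experiment, in which antibodies that carry DNA barcodes are counted together with the transcripts of each cell. Livers of C57BL/6 mouse embryos at e13.5 were pooled, cells with the erythroid surface marker Ter119 were depleted, and Ter119+ cells were then added back in equal number, so the shares of the stages were set by the mixing. The 7863 cell barcodes of the cDNA library were all found again in the antibody library. No genotype or treatment was compared. The stages, named S0-low, S0-medium, S1, S2, S3 and S4/S5 from the least to the most mature, were rebuilt here from the counts of the Ter119 and CD71 (transferrin receptor) antibodies, and all held wild-type cells of the same pool.

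Mitochondria carry their own small genome, whose messenger RNAs encode core subunits of the respiratory chain and ATP synthase. These messages are translated inside the organelle by a ribosome whose RNA is mitochondrial but whose proteins are all encoded in the nucleus, made in the cytosol and imported. Part of these proteins have counterparts in bacterial ribosomes and part are found only in mitochondrial ribosomes. The *Mrps* genes encode mostly proteins of the small subunit, which decodes the messenger RNA, and the *Mrpl* genes those of the large subunit, which forms the peptide bond. Exceptions are *Mrps30*, whose protein sits in the large subunit of mammals, and *Mrps36*, whose product is known as a part of the α-ketoglutarate dehydrogenase complex. Erythroid cells use mitochondria for heme synthesis and lose them as they become red cells.

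After filtering, 7244 cells were kept, with 2510 to 38047 UMIs per cell before filtering. The stages held between 609 cells (S1) and 1359 cells (S0-low), at median depths from 3949 UMIs per cell in S4/S5 to 10281 in S0-medium. There was no replicate, and cells are not replicates, so no test was possible. Intervals in brackets are exact 95% intervals and cover counting error only. A gene was counted as higher or lower when its ratio was past 1.5-fold, among genes with at least 50 UMIs over both groups. The summed level of 9 erythroid markers rose from 2006 CPM (UMIs per 1000000) in S0-low to 17171 CPM in S3, and stood at 12819 CPM in S4/S5. Transcripts of hepatocytes, which should be absent from erythroid cells, were found in all stages with 1.97 to 3.40 UMIs per cell over 12 markers, against 1083 in hepatocyte-like cells. The 9 myeloid markers took 551 CPM in S0-low (4.09 UMIs per cell), against 68.6 to 215 CPM in the other stages and 45815 CPM in myeloid-like cells. Of the S0-low cells 23.5% lay in an unnamed cluster led by *Ifitm1*, *Hmga2* and *Cd34*, 4.71% in one with *Lsp1*, *Ccr2* and *Lyz2* and 0.662% in one with *Mest*, *Sparc* and *Dcn*, against at most 0.493% of any of these in another stage. Without the cells of these 3 clusters, an alternative chosen after seeing the data, 244 of 258 values of named members stayed within their counting interval. Among these values are those of S3 over S1 and S4/S5 over S3, which hold few cells of these clusters and could hardly move. The summed ratio of S1 to S0-low, given below, moved beyond its interval.

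The member genes together took 15140.3 CPM in S0-low cells (15065–15216) and 15913 CPM in S0-medium cells (15838–15988). Their summed level was 14164 CPM at S1, 10052 CPM at S2, 5635 CPM at S3 and 2769 CPM at S4/S5 (2717–2822). With these gates the level was thus highest in S0-medium and fell at every later stage, beyond counting error. S0-low included cells of the unnamed clusters led by *Ifitm1*, *Lsp1* and *Mest*, which as whole clusters stood at 11560, 10404 and 9273 CPM. The ratio of S0-medium to S0-low was not taken without them, so the peak is stated only for S0-low with these cells. Globin transcripts filled a growing share of the library over the same stages, from 1.08% of UMIs in S0-low to 37.9% in S3 and 64.3% in S4/S5. Against the UMIs of all other genes, the members stood at 15306 per 1000000 for S0-low cells, 16138 for S0-medium, 14574 for S1, 11576 for S2, 9070 for S3 and 7749 for S4/S5. The order of the stages was the same on this scale, and the fall was smaller.

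Counted per cell, the members gave 113 UMIs at S0-low, 164 at S0-medium, 144 at S1, 71.8 at S2, 30.1 at S3 and 11.9 at S4/S5. The ratio of S1 to S0-low was 0.936 by CPM (0.928–0.943), 0.952 per 1000000 non-globin UMIs and 1.28 per cell, so its direction depended on the scale. S3 over S1 was 0.398 by CPM (0.392–0.403), 0.622 against non-globin UMIs (0.614–0.631) and 0.209 per cell. S4/S5 over S3 was 0.491 by CPM (0.480–0.503), 0.854 against non-globin UMIs (0.835–0.874) and 0.393 per cell. Fewer molecules captured per cell and less RNA per cell cannot be told apart here.

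**Figure D1:**
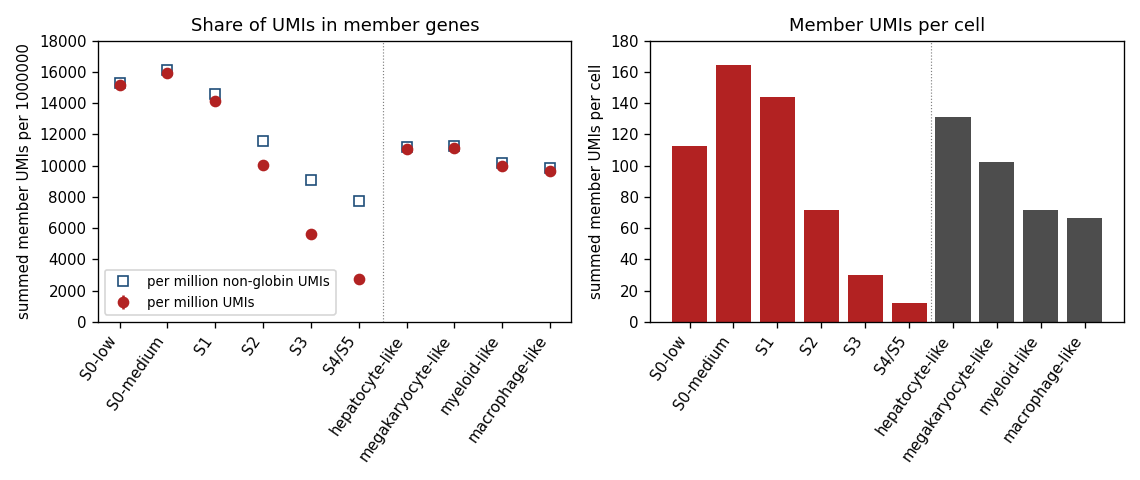
Left, summed member UMIs per 1000000 UMIs (circles, with counting intervals narrower than the symbols) and per 1000000 non-globin UMIs (squares) in the 6 stages and 4 non-erythroid classes. Right, summed member UMIs per cell as bars. With the gates used here, both scales peak at S0-medium and fall to S4/S5. The 4 classes right of the dotted line sit between 9635 and 11114 CPM.

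Cells within a stage varied. In S3 the median cell had 3458 CPM in the members, with quartiles at 2340 and 5572, below the pooled 5635 CPM. The pool weighs deeper cells more and is a mean, not a median. The part of each in the gap was not separated. With every cell thinned to 2000 UMIs, the median cell held 29 member UMIs at S0-low, 31 at S0-medium, 27 at S1, 17 at S2, 7 at S3 and 4 at S4/S5, and no cell was too shallow for this. The median number of different members seen per thinned cell went from 23 in S0-medium to 4 in S4/S5, against 55 and 8 without thinning. In S4/S5 the 11.9 member UMIs per cell stood beside 3.40 hepatocyte-marker UMIs per cell. At the ratio of members to markers within hepatocyte-like cells, that many marker UMIs would come with 0.412 member UMIs, or 3.47% of the S4/S5 level, and with 0.250% of the S1 level. The part of free RNA from other cells in the S4/S5 level was not tested.

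Among cells with low Ter119 (S0-low, S0-medium and S1, 3019 cells), the member level did not follow CD71 in one direction. Ordered by CD71 counts and cut into 10 equal groups, the cells stood at 11724 CPM in the lowest group, 13489 in the second and 16103 in the third. The level reached 16924 CPM in the fourth group, at 120 to 195 CD71 counts, below the border of 233.5 between S0-low and S0-medium. It came down to 13654 CPM in the highest, above 1151 counts. The balance of the subunits shifted over the same groups. The ratio of small- to large-subunit UMIs, taken by symbol, was 0.520 in the lowest group and 0.462 in the fourth, and stayed at 0.468 to 0.476 from the fifth on. In the lowest group 80.1% of cells, and in the second 46.4%, belonged to 3 unnamed clusters led by *Cd34*, *Dcn* and *Ccr2*, against 3.31% in the third.

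Without these 3 clusters, S1 over S0-low was 0.871. The direction also depended on the gates. With gates on log10 counts or from a Gaussian mixture S1 over S0-low was 1.27 and 1.199. Both put the border between S0-low and S0-medium at 52.5 CD71 counts in place of 233.5, and they also lowered the upper CD71 border and the Ter119 borders, so the part of each border cannot be told apart.

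**Figure D2:**
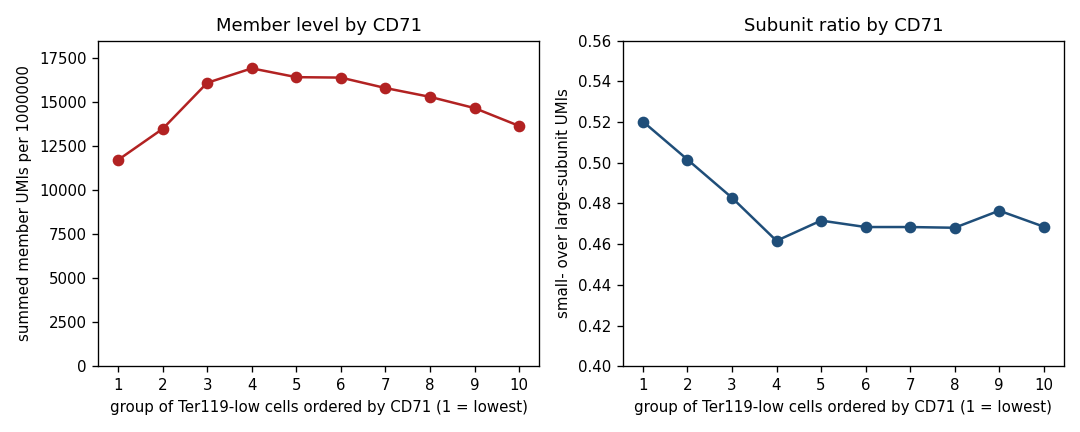
Left, summed member UMIs per 1000000 (mean of the pool, with counting intervals) in 10 equal groups of Ter119-low cells ordered by CD71 antibody counts. Right, the ratio of small- to large-subunit UMIs in the same groups, on an axis that does not start at 0. The level rises from 11724 CPM to 16924 CPM in the fourth group and then declines, while the subunit ratio drops from 0.520 to 0.462.

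Single members spanned a wide range of levels. The assay tags 1 end of each transcript, so counts were not divided by length. Over the 6 stages the median member had 132 CPM, against 18.1 CPM for the 9995 genes with at least 50 UMIs, and 48 members were above 100 CPM while 7 were below 50 CPM. The most abundant was *Mrpl18*, a homologue of bacterial L18, at 728 CPM or 6.00% of all member UMIs. It was followed by *Mrps14* at 479 CPM, *Mrpl42* at 466 CPM, *Mrpl12* at 421 CPM, *Mrpl20* at 409 CPM and *Mrpl30* at 375 CPM. These 6 genes held 23.7% of the member UMIs. At the low end were *Mrps6* at 26.1 CPM, *Mrps31* at 23.5 CPM, *Mrps27* at 15.5 CPM and *Mrpl53* at 0.716 CPM. *Mrpl53* gave 0 to 11 UMIs per stage and could not be compared. Its annotated exons overlap those of *Ccdc142* on the same strand in GENCODE M1, and those of *Mrpl33*, *Mrpl48*, *Mrps24*, *Mrps34* and *Mrps6* also overlap another gene, so their counts are uncertain where counting could split reads. Pseudogene copies were not checked.

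By CPM, 47 members were highest in S0-medium, 19 in S0-low, 7 in S1 and 1 in S2. Against non-globin UMIs the numbers were 44, 19, 7 and 2, and 2 members were highest in S4/S5. Peaks were taken without regard to counting error, and the peak stages of all genes were not counted. S0-low was taken with its cells of the unnamed clusters described above. By CPM the median ratio of all genes was 0.79 for S2 over S1 and 0.62 for S3 over S2. Early peaks are therefore not read as particular to the members.

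Promoter sequences are shown for members whose profiles stand at the ends of the range or that share a start region. They come from RefSeq on GRCm38.p6 (the build mm10), cover 250 bases before to 50 after the annotated start, and matched 65 of the 74 members in 71 windows. In capitals are matches to 3 motifs searched on both strands, NRF1 (GCATGCGC), ETS (CCGGAAG) and YY1 (AAGATGGC), each read in either orientation. *Mrpl32*, which kept its level best from S1 to S3, lies at chr13:14612988-14613287 on the minus strand, and its start is 205 bases from that of the proteasome gene *Psma2* on the other strand.
Mrpl32: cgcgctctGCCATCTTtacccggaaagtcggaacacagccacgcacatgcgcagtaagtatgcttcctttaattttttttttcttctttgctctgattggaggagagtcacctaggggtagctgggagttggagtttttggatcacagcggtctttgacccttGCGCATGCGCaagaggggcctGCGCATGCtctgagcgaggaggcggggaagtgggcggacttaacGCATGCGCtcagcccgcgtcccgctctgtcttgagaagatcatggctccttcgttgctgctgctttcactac
*Mrps12*, whose product sits at the decoding centre, lies at chr7:28741772-28742071 on the minus strand, 147 bases from the start of *Sars2*, which encodes the mitochondrial seryl-tRNA synthetase.
Mrps12: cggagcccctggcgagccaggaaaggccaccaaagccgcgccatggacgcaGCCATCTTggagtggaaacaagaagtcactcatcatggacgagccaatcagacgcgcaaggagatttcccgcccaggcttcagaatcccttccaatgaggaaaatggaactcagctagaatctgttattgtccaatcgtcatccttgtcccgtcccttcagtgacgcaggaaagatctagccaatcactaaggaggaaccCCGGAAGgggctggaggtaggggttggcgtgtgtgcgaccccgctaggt
*Mrps11* and *Mrpl46*, members of opposite subunits, start 42 bases apart on opposite strands, and both starts fall within chr7:78782881-78783180, shown on the plus strand of *Mrps11*.
Mrps11: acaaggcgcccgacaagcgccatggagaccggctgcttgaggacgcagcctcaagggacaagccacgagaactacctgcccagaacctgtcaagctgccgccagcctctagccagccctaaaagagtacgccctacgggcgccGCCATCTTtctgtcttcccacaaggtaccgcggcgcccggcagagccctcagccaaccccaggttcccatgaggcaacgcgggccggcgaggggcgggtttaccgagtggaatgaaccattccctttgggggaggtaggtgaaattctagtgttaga
*Mrpl12*, a stalk protein with one of the lowest ratios of S1 to S0-low, lies at chr11:120484387-120484686 on the plus strand, and none of the 3 motifs was in its window.
Mrpl12: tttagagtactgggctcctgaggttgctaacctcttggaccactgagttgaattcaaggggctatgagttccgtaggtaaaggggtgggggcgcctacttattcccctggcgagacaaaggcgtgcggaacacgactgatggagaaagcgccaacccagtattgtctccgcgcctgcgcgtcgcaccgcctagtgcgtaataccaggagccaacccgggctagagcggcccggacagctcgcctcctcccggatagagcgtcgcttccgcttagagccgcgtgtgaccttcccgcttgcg

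The ETS motif was in 31.0% of member windows, against 8.86% of all 32851 windows and 14.4% of the windows of genes with a UMI. YY1 matched 15.5% of member windows, against 2.75% and 3.68%. NRF1 matched 9.86%, against 2.71% and 4.48%. The *Mrpl32* window held 4 NRF1 matches, of which 2 overlapped on opposite strands. CCAAT was in 40.8% of member windows against 37.3% for genes with a UMI, the E-box CACGTG in 8.45% against 9.09%, the GATA motif AGATAA in 14.1% against 7.51% (and 11.2% of all windows), and the SP motif GGGCGG in 52.1% against 55.8%. A head-to-head neighbour starting within 1000 bases was found for 36.6% of member windows, or 24 members, against 15.7% for genes with a UMI. Median GC was 58.3% in member windows and 59.3% in the windows of genes with a UMI. These shares describe letters in windows, and no binding was measured.

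The head-to-head neighbours did not all follow the members. *Mrpl46* stood at 86.8, 99.6, 103, 85.4, 41.8 and 19.0 CPM from S0-low to S4/S5, and *Mrps11* at 138, 151, 144, 117, 68.4 and 27.9 CPM. *Mrpl46* was highest in S1 and *Mrps11* in S0-medium. Of 22 pairs with a gene that is no member, 14 could be compared between S1 and S3. Against non-globin UMIs the median log2 ratio was −0.65 for those members and −0.78 for their neighbours, which ranged from −1.97 to 0.64, with 10 of 14 below 0. For all tested genes other than members and globin genes the median was −0.41, with quartiles at −0.88 and 0.15. A fall was thus common among genes at large, and the count is not read as particular to the neighbours.

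From S0-low to S1 the count of members past the fold was small and depended on the gates and the scale. By CPM, 1 of the 73 members tested was at least 1.5-fold higher and 3 were lower, against 7.66% and 24.5% of all 9090 genes tested. With gates on log10 counts 13 were higher and 0 lower, with a Gaussian mixture 7 and 0, and per cell 9 and 0. Against non-globin UMIs the members' counts were again 1 and 3, and the shares of all genes 7.98% and 23.5%. The median log2 ratio was −0.07 for the members and −0.19 for all genes. The interval lay above 1 for 11 members, below 1 for 30 and held 1 for 32. Here and in the later comparisons the members and all genes differ in level and were not matched for it. Their shares past the fold are therefore not compared further.

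The gene above the fold was *Mrps31*, a mitochondria-specific small-subunit protein, with 19.4, 28.5, 31.6, 29.6, 13.4 and 4.17 CPM from S0-low to S4/S5. It was 1.63 times higher in S1 than in S0-low (1.33–1.997) and was highest in S1 by CPM and in S2 against non-globin UMIs. *Mrpl35* followed at 1.26 (1.18–1.34), *Mrpl22* at 1.21, *Mrpl14* at 1.19 and *Mrpl27* at 1.19, all 4 homologues of bacterial large-subunit proteins. The 3 lower members were *Mrps27*, a pentatricopeptide-repeat protein, at 0.554 (0.429–0.709), *Mrps6* at 0.636 (0.527–0.763) and *Mrps35* at 0.648 (0.579–0.724). *Mrpl12* stood at 0.686 (0.656–0.718), just short of the fold, and *Mrpl44* at 0.753. With gates on log10 counts, *Mrps35* and *Mrps6* turned to 1.13 and 1.12.

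From S1 to S3 every tested member had a lower level. By CPM 73 of 73 were at least 1.5-fold lower and 0 higher, against 72.4% and 7.07% of the 7539 genes tested. Against non-globin UMIs 50 of 73 were lower and 0 higher, against 40.8% and 14.7%, and the remaining 23 also had ratios below 1. The interval held 1 for 3 of them. The members' median log2 ratio was −1.43 by CPM, against −1.06 for all genes, and −0.78 against non-globin UMIs, against −0.42 for all genes. Of the 73, 62 lay below the median of all genes, a count that the choice of denominator cannot change. This count too is from sets not matched for level. Part of the fall took place before S3, since S2 over S1 was 0.794 for the summed level against non-globin UMIs and S3 over S2 was 0.783.

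**Figure D3:**
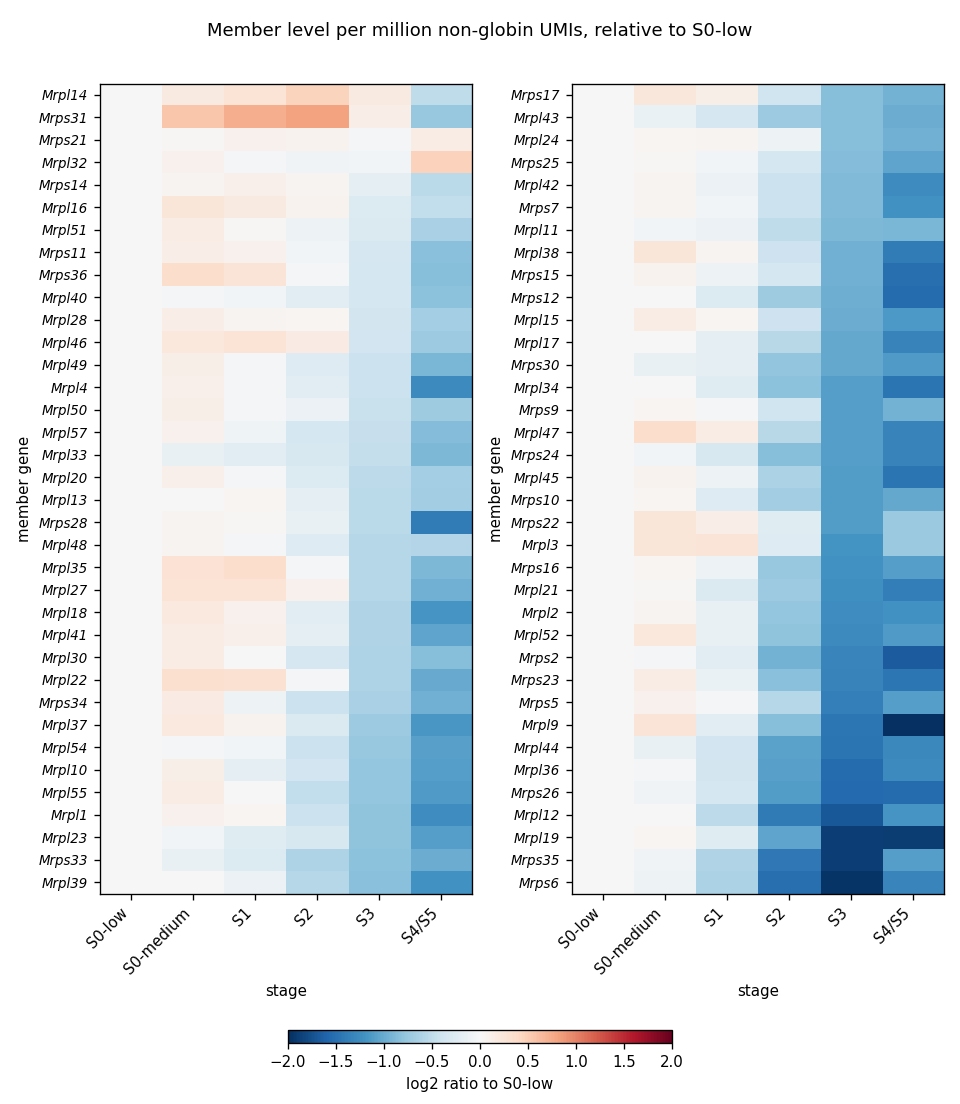
Level of 72 members (those with at least 1000 UMIs over the 6 stages) per 1000000 non-globin UMIs in each stage, as log2 ratio to S0-low, ordered by S3 from the least (top left) to the most reduced (bottom right). Most rows turn blue from S2 on. *Mrpl14* and *Mrps31* are above S0-low until S3, *Mrpl32* and *Mrps21* hold their level to S4/S5, and *Mrps6*, *Mrps35*, *Mrpl19* and *Mrpl12* are the most reduced in S3.

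The deepest fall was that of *Mrpl19*, a bacterial-type large-subunit protein. It stood at 116, 119, 96.5, 49.0, 19.7 and 11.2 CPM from S0-low to S4/S5, and S3 over S1 was 0.204 by CPM (0.161–0.255) and 0.319 against non-globin UMIs (0.252–0.3996). *Mrpl3* (0.364 against non-globin UMIs), *Mrps5* (0.393), *Mrps6* (0.399) and *Mrps35* (0.409) came next. Their intervals overlapped that of *Mrpl19*, so these 5 could not be ranked.

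At the other end stood *Mrpl32*, a large-subunit protein that is matured by a mitochondrial protease before it joins the ribosome. It had 237, 250.3, 226, 198, 144 and 118 CPM from S0-low to S4/S5. Per 1000000 non-globin UMIs these were 239, 254, 233, 228, 231 and 330.0, so it did not go down on this scale. S3 over S1 was 0.995 (0.905–1.09) against non-globin UMIs and 0.636 by CPM (0.579–0.699). *Mrpl14* (0.936), *Mrps21* (0.911), *Mrpl33* (0.835) and *Mrps14* (0.825) were the next highest against non-globin UMIs, and the intervals of the first 2 held 1. *Mrpl14* stood at 267, 303, 319, 321, 191 and 68.2 CPM and was the only member highest in S2 by CPM.

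From S3 to S4/S5 the picture depended on the denominator. By CPM 64 of 72 members tested were at least 1.5-fold lower and 0 higher, against 78.1% and 1.45% of 5515 genes. Against non-globin UMIs 6 were lower and 2 higher, against 19.9% and 9.12%. The members' median log2 ratio was −1.11 by CPM and −0.31 against non-globin UMIs, close to the −1.003 and −0.20 of all genes. Globin transcripts alone made up 64.3% of S4/S5 UMIs.

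The 2 members higher against non-globin UMIs were *Mrps35* at 1.74 (1.25–2.41) and *Mrps6* at 1.55 (0.861–2.76), and the interval of *Mrps6* held 1. *Mrpl32* at 1.43 (1.26–1.61), *Mrpl12* at 1.42 (1.25–1.62) and *Mrpl3* at 1.38 (1.01–1.89) were next. By CPM the same genes had ratios of 0.998, 0.893, 0.820, 0.818 and 0.795, so their direction differed between scales. *Mrps21*, *Mrpl52* and *Mrpl44* also changed direction, from 0.657, 0.631 and 0.649 by CPM to 1.14, 1.10 and 1.13. On the second scale the intervals of these genes held 1, so no rise is read from them. Of the 72 members tested, 0 had ratios above 1 by CPM and 16 against non-globin UMIs. On the latter scale the interval lay above 1 for 5 members, below 1 for 30 and held 1 for 37. Lowest were *Mrps31* at 0.310 by CPM (0.167–0.546, 16 UMIs in S4/S5), *Mrps28* at 0.317, *Mrpl4* at 0.320, *Mrpl14* at 0.358 and *Mrpl9* at 0.363. *Mrpl14* and *Mrpl32* had thus nearly equal ratios from S1 to S3 but 0.622 and 1.43 from S3 to S4/S5 against non-globin UMIs, with intervals that did not overlap.

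The lateral stalk recruits translation factors to the ribosome. Of its 3 genes 0 were past the fold from S0-low to S1 by CPM, where 7.66% of all genes were higher and 24.5% lower. Their summed ratio was 0.745 (0.718–0.773), in a sum made up mostly of *Mrpl12* UMIs. *Mrpl12* stood at 635, 629.6, 436, 208, 124 and 101 CPM from S0-low to S4/S5. *Mrpl10*, its partner in the stalk, was at 66.7, 72.0, 57.4, 44.8, 24.6 and 11.2 CPM, and *Mrpl11*, at the stalk base, at 184, 177, 167, 114, 62.4 and 35.4 CPM. S1 over S0-low was 0.861 for *Mrpl10* (0.755–0.9802) and 0.905 for *Mrpl11* (0.838–0.977), both above the interval of *Mrpl12*. *Mrpl45*, which tethers the ribosome to the inner membrane, stood at 81.6 CPM in S0-low and 23.7 CPM in S3, and its S3 over S1 was 0.494 against non-globin UMIs (0.396–0.612). *Mrps12* stood at 259 CPM in S0-low and 82.5 CPM in S3, with 0.616 for the same ratio (0.547–0.692).

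Genes for proteins with bacterial counterparts and for mitochondria-specific ones were both lower in S3 than in S1. Against non-globin UMIs the summed ratio was 0.627 for the 15 bacterial-type small-subunit genes (0.609–0.647, 11 lower) and 0.557 for the 9 mitochondria-specific ones (0.528–0.587, 7 lower). It was 0.615 for the 29 bacterial-type large-subunit genes (0.603–0.628, 19 lower) and 0.651 for 19 mitochondria-specific ones (0.632–0.670, 12 lower). In the small subunit the mitochondria-specific sum was the lower of the 2 and in the large subunit the higher, with intervals that did not overlap in either. The background is the 40.8% of all genes given above. The small-to-large ratio by symbol stayed within 0.459 to 0.482 over the 6 stages, and S0-low (0.477–0.488) and S3 (0.447–0.472) did not overlap within counting error. The cluster led by *Ifitm1*, *Hmga2* and *Cd34*, with 23.5% of S0-low cells, had a ratio of 0.525 (0.514–0.536). The S0-low ratio was lower without the unnamed clusters, and higher with gates on log10 counts or from a Gaussian mixture. Its value without the unnamed clusters is given with the alternatives below, with no interval. The lack of overlap with S3 is thus stated only for S0-low with these cells included. The part of cell composition in the difference from S3 was not tested. Proteins of the mitochondrial ribosome with other symbols, such as *Dap3* and *Gadd45gip1*, gave 9 tested genes, of which 6 were lower and 0 higher. Their summed ratio of 0.695 (0.670–0.721) lay above that of the members. *Mrps18c* stood at 187 per 1000000 non-globin UMIs in S1 and 198 in S3, and *Mrps18b* at 153 and 54.7.

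The machinery around the ribosome was reduced as well. Of 11 mitochondrial translation factors 8 were lower in S3 than in S1 against non-globin UMIs and 0 higher, with a summed ratio of 0.479 (0.438–0.523), where 40.8% of all genes were lower and 14.7% higher. The elongation factor *Tufm* stood at 35.6 CPM in S1 and 6.71 CPM in S3, and its exchange factor *Tsfm* at 170 and 46.9 CPM. Per 1000000 non-globin UMIs these were 36.7 and 10.8 for *Tufm* and 175 and 75.6 for *Tsfm*. Of 20 assembly factors 15 were lower (summed ratio 0.575), of 15 mitochondrial tRNA synthetases tested 12 (0.554), and of 12 genes for mitochondrial transcription and RNA handling 10 (0.577), all with 0 higher and to be read beside the same shares of all genes. *Tfam*, which packages mitochondrial DNA and helps to start its transcription, stood at 128, 136, 106, 62.5, 23.2 and 22.4 CPM from S0-low to S4/S5. Per 1000000 non-globin UMIs it stood at 129, 138, 109, 72.0, 37.4 and 62.7, so it was higher in S4/S5 than in S3 on this scale. Of 8 regulators tested 4 were lower and 1 higher. *Myc*, a growth regulator, stood at 173, 119, 69.7, 36.4, 30.9 and 32.8 per 1000000 non-globin UMIs from S0-low to S4/S5. *Nrf1*, an activator of nuclear genes for mitochondria, stood at 55.7, 65.3, 64.7, 75.1, 83.1 and 40.1 on the same scale. *Gabpb1*, a subunit of an ETS-type activator, was the gene past the fold upwards, at 39.3 in S1 and 63.3 in S3. *Gabpa* went the other way, at 32.4 in S1 and 27.3 in S3, as did *Yy1* at 86.6 and 67.3, both short of the fold.

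The summed level of the genes that encode the respiratory chain fell less from S1 to S3. For 77 nuclear genes of oxidative phosphorylation the summed ratio of S3 to S1 against non-globin UMIs was 0.968 (0.960–0.976), with 10 lower and 3 higher. The 13 mitochondrially encoded mRNAs, whose translation needs the mitochondrial ribosome, had 0.891 (0.885–0.897) with 5 lower. For 78 cytosolic ribosomal protein genes the ratio was 0.726 (0.724–0.729) with 15 lower. The members' 0.622 (0.614–0.631) lay below all 3 beyond counting error. Of all genes tested 40.8% were lower and 14.7% higher. The median log2 ratio of the mitochondrially encoded mRNAs was −0.50, a larger fall than that of their sum. It was −0.41 for all tested genes other than members and globin genes, and −0.78 for the members. By CPM the 4 summed ratios were 0.398 for the members, 0.464 for cytosolic ribosomal proteins, 0.570 for mitochondrial mRNAs and 0.619 for nuclear oxidative phosphorylation genes. A change of denominator scales all 4 alike. From S3 to S4/S5 the order changed. Against non-globin UMIs the ratio was 0.854 for the members and 0.687 for cytosolic ribosomal proteins (0.683–0.692). From S0-low to S1 the mitochondrial mRNAs were at 1.18 by CPM (1.17–1.18), while cytosolic ribosomal proteins were at 1.0002 and the members at 0.936.

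**Figure D4:**
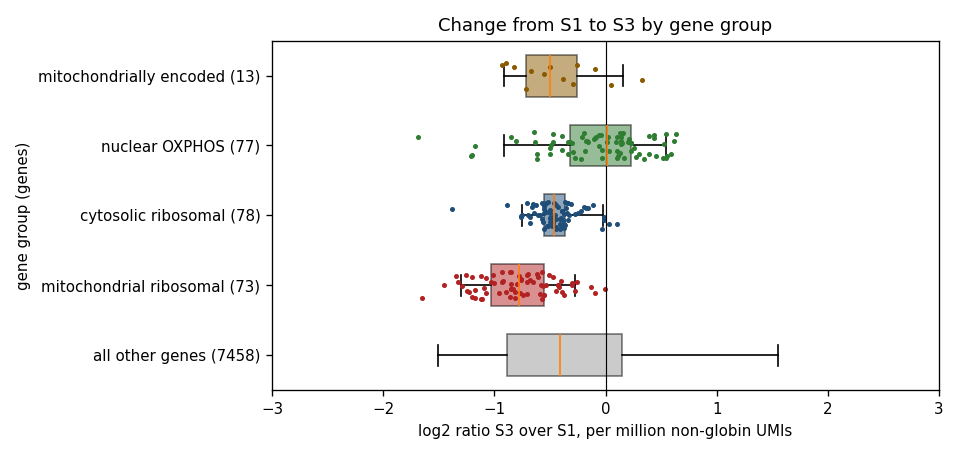
Log2 ratio of S3 over S1 per 1000000 non-globin UMIs for genes with at least 50 UMIs. Boxes give median and quartiles, whiskers the 5th and 95th percentiles, dots single genes of the 4 lists. The members lie furthest left, with a median of −0.78, against −0.46 for cytosolic ribosomal proteins, 0.01 for nuclear oxidative phosphorylation genes, −0.50 for mitochondrially encoded mRNAs and −0.41 for all other genes. The box of all other genes holds every tested gene outside the members and globin genes, also those of the other lists.

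Outside the erythroid series, 4 classes were named from marker genes by clusters built without the member genes. They were 184 hepatocyte-like, 148 megakaryocyte-like, 111 myeloid-like and 82 macrophage-like cells. All stood below the Ter119-low cells (S0-low, S0-medium and S1 together), which had 15226 CPM in the members. The Ter119-low cells included the 3 unnamed clusters described for S0-low, and without them the ratios of the first 3 classes were 0.708, 0.713 and 0.638. Hepatocyte-like cells had 11038 CPM, megakaryocyte-like cells 11114, myeloid-like cells 9943 and macrophage-like cells 9635, and the first 2 differed by less than 1%. The ratios were 0.725 (0.716–0.734), 0.730 (0.718–0.742), 0.653 (0.639–0.668) and 0.633 (0.616–0.650). Per cell, hepatocyte-like cells gave 131 member UMIs, against 137 in the Ter119-low cells, a ratio of 0.957. Small- over large-subunit UMIs were 0.532 in megakaryocyte-like cells (0.514–0.550) and 0.503 in myeloid-like cells (0.480–0.527). Both lay above the 0.475 of Ter119-low cells (0.472–0.478). The ratio was 0.474 in hepatocyte-like and 0.472 in macrophage-like cells.

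Against Ter119-low cells, 23 of 73 members were at least 1.5-fold lower and 4 higher in hepatocyte-like cells, where 44.4% of all genes were lower and 21.4% higher. In megakaryocyte-like cells 29 were lower and 0 higher, against 21.3% and 24.7%. In myeloid-like cells 43 were lower and 2 higher, against 33.4% and 20.2%, and in macrophage-like cells 45 and 1, against 40.0% and 24.3%. The median log2 ratios of members and of all genes were −0.39 and −0.44 for hepatocyte-like cells, −0.49 and 0.00 for megakaryocyte-like, −0.67 and −0.25 for myeloid-like and −0.67 and −0.33 for macrophage-like cells. The 4 comparisons share the Ter119-low cells.

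In hepatocyte-like cells the members' log2 ratios ran from −1.81 to 1.28. *Mrps31* stood at 62.7 CPM there and at 25.8 CPM in Ter119-low cells, a ratio of 2.43 (2.01–2.92). *Mrpl50*, a mitochondria-specific large-subunit protein, was at 329 and 141 CPM (2.32, 2.14–2.52), and *Mrps27* at 39.8 and 21.7 CPM (1.84, 1.45–2.31). On the other side, *Mrpl36*, a small homologue of bacterial L36, stood at 130 CPM against 456 (0.284, 0.252–0.320). *Mrpl18* was at 320 CPM against 903 (0.355, 0.329–0.383) and *Mrps23* at 50.8 against 126 (0.403). *Mrpl18*, first among members in the erythroid stages, thus ranked behind *Mrpl42*, *Mrps14*, *Mrpl12* and *Mrpl50* in these cells. Mitochondrially encoded mRNAs were 1.55 times as high in hepatocyte-like as in Ter119-low cells (1.54–1.56) and nuclear oxidative phosphorylation genes 1.203 times (1.195–1.212), beside 0.725 for the members.

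In megakaryocyte-like cells *Mrpl52* (58.2 CPM, ratio 0.345), *Mrpl35* (103 CPM, 0.417) and *Mrps22* (32.4 CPM, 0.442) were lowest. *Mrps23* at 1.17 (1.01–1.35), *Mrps33* at 1.06 and *Mrpl54* at 1.04 were highest, and the intervals of the last 2 held 1. *Mrpl52* was also lowest in myeloid-like cells, at 32.4 CPM against 169 in Ter119-low cells (0.192, 0.125–0.282), ahead of *Mrpl9* (0.292) and *Mrpl47* (0.353). *Mrpl33* was higher in these cells, at 284 against 164 CPM (1.74, 1.51–1.99), as was *Mrpl44* at 117 against 70.1 CPM (1.67, 1.35–2.06), while *Mrps27* had 1.09 (0.654–1.72). In macrophage-like cells *Mrps6* stood at 68.7 against 36.7 CPM (1.87, 1.32–2.58) and *Mrpl17* at 259 against 203 CPM (1.28, 1.08–1.51), followed by *Mrps33* at 0.975. *Mrps22* was lowest at 0.240 (0.115–0.442), then *Mrps5* at 0.332 and *Mrpl12* at 0.393.

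**Figure D5:**
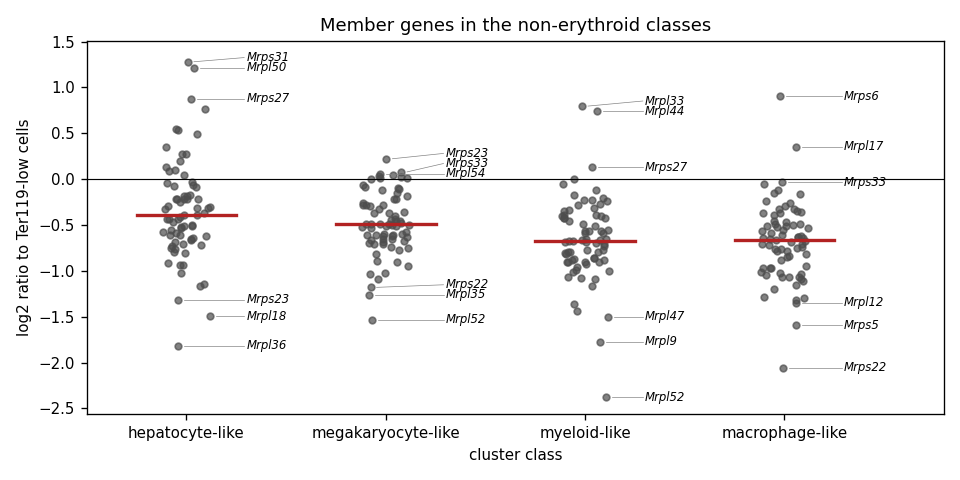
Log2 ratio of each tested member (dots, 73 per class) in 4 non-erythroid classes over Ter119-low cells, from UMIs per 1000000, with the median as a bar. The 3 lowest and 3 highest members of each class are named. Medians lie between −0.67 and −0.39, and single members leave the group upwards in hepatocyte-like (*Mrps31*, *Mrpl50*), myeloid-like (*Mrpl33*, *Mrpl44*) and macrophage-like cells (*Mrps6*).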

How the data were processed

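The authors mapped the 10x 3′ v2 reads to mm10 with Cell Ranger and deposited UMI counts that were not normalized, beside the counts of each antibody, which CITE-seq-Count assigned. Both tables precede their doublet and quality filters.

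Of 7863 cells, 508 were removed for a gene number outside 300 to 5000 or a mitochondrial share above 9%. Scrublet scoring at an expected doublet rate of 6% called 128 doublets (1.63%), of which 111 remained after the quality filter and were removed. Cells whose summed lineage antibody counts lay above the median plus 2 scaled median absolute deviations were set aside. Ter119 and CD71 counts, scaled by centred log ratio, were split by k-means into the stages, and 216 of 6424 lineage-low cells fell in no stage. These gates follow an earlier processing of the data and stand in for gates whose positions the study's text does not give. Clusters came from 2000 variable genes without the members, 16 principal components, 30 neighbours and Leiden resolution 0.8. A class was named where 3 markers were among its top 10 genes by fold, a rule set here, and named cells were left out of the stages.

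Levels are pooled UMIs per 1000000, per 1000000 non-globin UMIs or per cell. Intervals are exact Poisson or conditional binomial (Clopper-Pearson) 95% intervals for counting error. Those of ratios were tried on simulated Poisson counts, the model that they assume. The simulated counts held no variation between cells, gates or libraries. UMI depth limits members with few counts. Members were named by rank of level and of ratio in each comparison (6 highest and 4 lowest levels, 5 highest and lowest stage ratios, 3 highest and lowest class ratios) and by role in stalk, membrane anchor and decoding centre. Members and lists were chosen with earlier results of these data known. Promoter windows came from RefSeq on GRCm38.p6. The scripts ran with scanpy 1.11.5, igraph 0.11.9, scikit-learn 1.9.0, matplotlib 3.10.9, scipy 1.17.1 and Python 3.11.15 (numpy 2.4.6, pandas 2.3.3), with seed 7.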

Additional observations from a re-analysis of the deposited data

How the results depend on the processing

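One library gives no replicate error, the gates were rebuilt, and the named classes hold few cells, so single members rest on few UMIs there. No paired analysis was possible because the result comes from no test and there is 1 sample. The causes of the shifts below were not tested. Apart from the setting without globin in the denominator, no share of all genes was taken for the counts of members past the fold below. These counts are not read as results about the members.

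Gates on log10 antibody counts gave summed ratios of 1.27 for S1 over S0-low (13 members past the fold higher, 0 lower), 0.425 for S3 over S1 and 0.417 for S4/S5 over S3. With the same gates the classes over Ter119-low cells were 0.709 for hepatocyte-like, 0.714 for megakaryocyte-like and 0.639 for myeloid-like cells, the subunit ratio was 0.509 in S0-low, 0.466 in S1 and 0.471 in S2, and *Mrps35* and *Mrps6* turned to 1.13 and 1.12 in S1 over S0-low. Gaussian mixture gates gave 1.199 for S1 over S0-low (7 higher, 0 lower), 0.382 for S3 over S1 and a subunit ratio of 0.509 in S0-low. Keeping non-erythroid cells in the stages gave 0.964 for S1 over S0-low (0 higher) and 0.735 for hepatocyte-like cells. Keeping doublets gave 0.438 for S3 over S1 and 0.472 for S4/S5 over S3.

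With at most 5% mitochondrial UMIs the 3 stage ratios were 0.885 (5 members lower), 0.337 and 0.573, and hepatocyte-like, megakaryocyte-like and macrophage-like cells stood at 0.763, 0.748 and 0.612. Without globin in the denominator the stage ratios were 0.952, 0.622 and 0.854, with 2 members higher and 6 lower in S4/S5 over S3. There *Mrps21*, *Mrpl52* and *Mrpl44* turned to 1.14, 1.10 and 1.13, with intervals that held 1. Per cell they were 1.28 (9 higher, 0 lower), 0.209 and 0.393, and the 4 classes stood at 0.957, 0.745, 0.524 and 0.487. The mean over cells of CPM gave 0.920, 0.334 and 0.538, and 0.745, 0.756, 0.619 and 0.651 for the classes. Without the member with the most UMIs, hepatocyte-like cells stood at 0.748. A 2-fold limit left 0 members higher and 0 lower in S1 over S0-low and 42 lower in S4/S5 over S3, and a minimum of 10 UMIs put 2 members higher in S1 over S0-low. At a resolution of 0.4, where no macrophage-like cluster was found, the other 3 classes stood at 0.688, 0.942 and 0.703. Their clusters were larger there than at 0.8. The megakaryocyte-like cluster held 522 cells in place of 148, and the myeloid-like one 894 in place of 111. The cluster named by hepatocyte markers held 248 in place of 184. The ratios at 0.4 are therefore for other sets of cells and are not read as shifts of the same classes. Without the 3 unnamed clusters, an alternative chosen after seeing the data, S1 over S0-low was 0.871, hepatocyte-like cells stood at 0.708, megakaryocyte-like at 0.713 and myeloid-like at 0.638, and the S0-low subunit ratio was 0.475.

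S3 over S1 and S4/S5 over S3 stayed below 1 for the summed level under every alternative listed here. Of 2321 values of named members under alternatives, 1851 stayed within their counting interval, 465 moved beyond it, and 5 that were past the 1.5-fold limit changed direction, those given above. Values short of that limit were not counted as changing direction, such as *Mrpl32* in S4/S5 over S3, at 0.820 by CPM and 1.43 against non-globin UMIs.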

Other observations

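The unnamed clusters were made without the member genes. The highest member level was that of 673 cells led by *Prelid2*, at 16719 CPM, followed by a cluster of 892 cells led by *Rpgrip1* at 16034 CPM and by 361 cells led by *Gm15915* and holding *Car1* and *Myb* among their leading genes at 15836 CPM. Cells led by *Ifitm1*, *Hmga2* and *Cd34* stood at 11559.9 CPM, with a small-to-large ratio of 0.525 (0.514–0.536), above the 0.469 of the *Prelid2* cluster (0.464–0.474). Among the most globin-rich clusters, 586 cells led by *Tmcc2* and *Xpo7* had 2240.4 CPM and 433 cells led by *Bpgm* had 2094 CPM, but 5711 and 8525 per 1000000 non-globin UMIs, with 60.8% and 75.4% of UMIs in globin genes. By CPM the lowest of the levels given here was that of 73 cells led by the embryonic globin genes *Hbb-y* and *Hba-x*, at 1077 CPM or 5949 per 1000000 non-globin UMIs and 5.51 member UMIs per cell, with 81.9% of UMIs in globin genes. These cells made up 4.46% of S4/S5 and 1.44% of S3.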
